A study of Mus musculus with 15 samples.

Results

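Genes of nucleotide and adenosine sensing were followed in myeloid cells sorted from the mouse brain: the ADP receptors P2ry12 and P2ry13, the UDP receptor P2ry6, the ATP-gated channels P2rx4 and P2rx7, the adenosine A3 receptor Adora3, the P2Y-like receptor Gpr34 and the ectoenzyme Entpd1. They were taken from the deposited tables by gene symbol, 8 genes of the 38924 listed, and 9 rows carried these symbols because Adora3 was listed under 2 identifiers. All 8 genes were measured well above the limit of detection, with at least 110 counts in every library, and all were among the 14967 genes tested. The cells came from wild-type male C57BL/6J mice killed at 12 months of age, fed a control chow diet (CD) or, from 2 months, a western diet (WD) rich in fat and sugar. CD11b+ brain cells without CD3e, a T cell protein, were parted by FACS into cells with a high (CD45hi) and a low (CD45lo) surface level of the leukocyte protein CD45. There were 4 libraries of CD-fed CD45hi, 4 of CD-fed CD45lo, 3 of WD-fed CD45hi and 4 of WD-fed CD45lo cells, with total expected counts of 11951412 to 17912272. All groups shared the strain, sex and age, and cerebellum and olfactory bulb had been removed from every brain. The labels do not say whether a library was 1 mouse, so p-values measure the spread between these libraries. The paper sorted both fractions from CD11b+CD45+ cells and describes the counts as given for each animal. Which libraries share a mouse is not stated, and the main fit did not pair them.

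Cells release ATP and other nucleotides when they are stressed or injured, and neighbouring cells read them through purinergic receptors. P2Y receptors are G-protein coupled, P2X receptors are cation channels opened by ATP, and adenosine receptors sense the nucleoside left after ectoenzymes have removed the phosphates. Entpd1 (CD39) carries out the first of these steps, from ATP and ADP to AMP. In microglia, P2ry12 directs the processes of the cell towards a source of ADP and is widely used as a marker of the homeostatic state, P2ry6 triggers phagocytosis, and P2rx7 is an upstream signal of inflammasome activation. Gpr34 belongs to the same receptor family by sequence, but is known as a receptor for lysophosphatidylserine rather than a nucleotide.

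The sorted fractions carried the transcripts their gates would hold, with mixtures. The summed level of 9 microglia markers (such as Tmem119) was 14525 to 17889 cpm (read counts scaled to library size, with TMM factors) in CD45lo and 7060 to 8912 cpm in CD45hi libraries, so microglial transcripts were abundant in both. The 7 markers of border-associated macrophages (such as Mrc1 and Cd163) summed to 58.4 to 220.1 cpm in CD45lo and 699.2 to 2536.2 cpm in CD45hi libraries. Neutrophil (638.7 to 1309 against 1410.1 to 3899.7 cpm) and monocyte markers (47.1 to 165.0 against 620.4 to 1218 cpm) were also higher in CD45hi libraries as sums, with 10 and 8 genes in these lists. By the test given below, 6 neutrophil genes were higher on each diet, and 6 monocyte genes in CD-fed and 5 in WD-fed mice. The neutrophil genes Csf3r, Ly6g, Camp and Ngp did not pass on either diet. Csf3r had means of 551.4 and 683.8 cpm in CD-fed and WD-fed CD45lo cells, where the median neutrophil sums were 877.5 and 852.3 cpm. Mitochondrial genes took 7.99 to 10.93% of counts in CD45lo and 17.68 to 20.5% in CD45hi libraries. Replicate 4 of the CD-fed and replicate 1 of the WD-fed CD45hi libraries stood apart from the others at opposite ends of the second principal component (93 and -134.7, against -4.5 to 21.5). In bulk RNA, fewer cells of a type and less RNA per cell cannot be told apart.

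The first comparison asked how the 8 genes differed between CD45hi and CD45lo cells. P2ry12 and P2ry13 fell in CD45hi cells on both diets, to 0.334 and 0.400 of the CD45lo level in CD-fed mice and 0.317 and 0.339 in WD-fed mice. Gpr34 and Entpd1 were also lower on both diets, but each passed the test on 1 diet only. Gpr34 passed in CD-fed mice (log2 fold change -1.23, and -1.07 in WD-fed mice). Entpd1 passed in WD-fed mice (-1.08, and -0.85 in CD-fed mice). P2ry6, P2rx4, P2rx7 and Adora3 did not pass the test on either diet, and their sizes differed widely. A gene was called where edgeR's glmTreat, which tests for a change beyond 1.5-fold, gave a Benjamini-Hochberg adjusted p under 0.05 over all genes tested. By that rule 3 of the 8 genes were called lower and 0 higher on each diet, beside 0.588% of tested genes called lower in CD-fed and 1.17% in WD-fed mice. The median log2 fold change of the 8 genes was -1.04 in CD-fed and -1.07 in WD-fed mice, beside 0.04 and 0.00 over all tested genes. Without the 2 libraries that stood apart, 4 genes were called in CD-fed mice (P2ry12, P2ry13, Gpr34 and Adora3) and 3 in WD-fed mice (P2ry12, P2ry13 and Gpr34), a fit chosen after seeing the data. Of the 14736 genes tested in that fit, 122 were called lower in CD-fed and 355 in WD-fed mice.

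**Figure D1:**
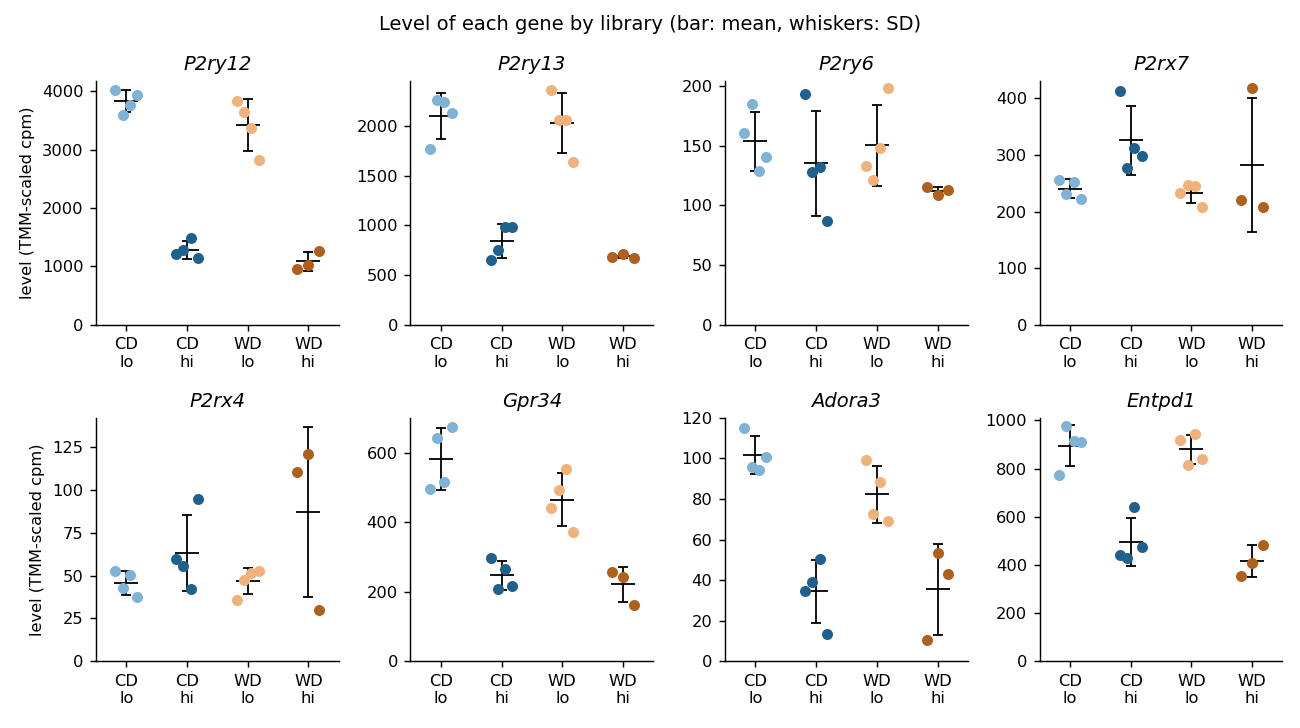
Level of each gene in every library, as TMM-scaled cpm on linear axes that start at 0; points are libraries, the bar is the group mean and the whiskers the SD (4, 4, 4 and 3 libraries from left to right). P2ry12, P2ry13, Gpr34, Adora3 and Entpd1 lay lower in every CD45hi library than in any CD45lo library of the same diet. P2ry6 did so in WD-fed mice only. Of all tested genes 8.22% showed this pattern in CD-fed and 13.4% in WD-fed mice. P2rx7 lay higher in every CD45hi library of CD-fed mice, as did 8.26% of tested genes. P2rx4 overlapped between the cell types on both diets.

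P2ry12 (ENSMUSG00000036353) couples to an inhibitory G protein and is the receptor that the antiplatelet thienopyridines block. In CD-fed mice its level was 4022, 3598, 3765 and 3945 cpm in CD45lo libraries and 1207, 1285, 1484 and 1137 cpm in CD45hi libraries. On the WD it was 3838, 3651, 3375 and 2825 cpm in CD45lo and 962.4, 1029 and 1263 cpm in CD45hi libraries. Every CD45hi library lay below every CD45lo library of its diet. The log2 fold change was -1.58 ± 0.119 (SE, adjusted p = 5.36e-06) in CD-fed and -1.66 ± 0.132 (adjusted p = 8.81e-06) in WD-fed mice. These differences lay at the lower edge of the 9 microglia markers, whose log2 fold changes ranged from -1.59 to -0.90 in CD-fed and from -1.65 to -0.63 in WD-fed mice. All 9 markers were called lower in CD-fed and 7 in WD-fed mice, and the part of the microglial fraction in the P2ry12 difference was not tested.

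P2ry13 (ENSMUSG00000036362), the second ADP receptor, gave 1769, 2259, 2240 and 2133 cpm in CD45lo and 646.9, 749.9, 982.2 and 984.3 cpm in CD45hi libraries of CD-fed mice. On the WD it gave 2365, 2058, 2059 and 1637 cpm in CD45lo and 685.2, 710.1 and 671.7 cpm in CD45hi libraries. The cell types did not overlap on either diet, a pattern of lower CD45hi libraries that 8.22% of tested genes showed in CD-fed and 13.4% in WD-fed mice. In log2 units the difference was -1.32 ± 0.145 (SE, adjusted p = 0.000675) in CD-fed and -1.56 ± 0.162 (adjusted p = 0.00014) in WD-fed mice.

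P2ry6 (ENSMUSG00000048779), the UDP receptor, was the P2Y member that did not pass the test. Its CD45lo level was 160.5, 185.3, 129.1 and 140.3 cpm and its CD45hi level 193.2, 128.0, 132.0 and 87.3 cpm in CD-fed mice, so that the CD45hi libraries held both the highest and the lowest value. In WD-fed mice the 3 CD45hi libraries (115.2, 108.9 and 113.1 cpm) lay just below the lowest of the CD45lo libraries (132.6, 121.4, 148.2 and 198.6 cpm). Its log2 fold change was -0.19 (95% interval -0.66 to 0.28) in CD-fed and -0.42 (-0.93 to 0.09) in WD-fed mice, intervals that hold neither of the P2ry12 values.

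P2rx7 (ENSMUSG00000029468) opens at high concentrations of ATP. In CD-fed mice it was 256.1, 231.2, 252.6 and 221.3 cpm in CD45lo and 413.6, 277.0, 313.2 and 298.6 cpm in CD45hi libraries. Each CD45hi library of CD-fed mice was thus above every CD45lo library, as in 8.26% of tested genes, but the log2 fold change of 0.44 (95% interval 0.02 to 0.86, adjusted p = 0.962) did not pass. In WD-fed mice 232.5, 247.2, 244.9 and 208.7 cpm in CD45lo stood beside 220.9, 418.0 and 207.8 cpm in CD45hi libraries, and 1 library, replicate 2, set the higher mean. The log2 fold change there was 0.27 (-0.18 to 0.73), and without that library it was -0.12.

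P2rx4 (ENSMUSG00000029470), a channel linked to microglial signalling in neuropathic pain, varied widely among the CD45hi libraries. Its CD45lo level was 52.4, 42.8, 50.5 and 37.3 cpm in CD-fed and 35.9, 47.3, 51.6 and 52.6 cpm in WD-fed mice. Its CD45hi level was 59.8, 55.3, 42.3 and 94.3 cpm in CD-fed and 110.0, 120.8 and 30.1 cpm in WD-fed mice. The WD-fed CD45hi libraries therefore held both the 2 highest values and the lowest of all 15 libraries. The log2 fold change was 0.46 (95% interval -0.29 to 1.21) in CD-fed and 0.89 (0.09 to 1.69, adjusted p = 0.384) in WD-fed mice. RSEM divided reads between this gene and other rows in 14 of the 15 libraries, where its count was not whole.

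Gpr34 (ENSMUSG00000040229) was 497.1, 641.4, 515.9 and 675.3 cpm in CD45lo and 297.9, 208.2, 266.8 and 217.0 cpm in CD45hi libraries of CD-fed mice. On the WD it was 442.0, 492.0, 554.1 and 372.8 cpm in CD45lo and 257.7, 244.2 and 163.6 cpm in CD45hi libraries. The cell types did not overlap on either diet. In log2 units Gpr34 differed by -1.23 ± 0.182 (SE, adjusted p = 0.00952) in CD-fed and -1.07 ± 0.199 (adjusted p = 0.0535) in WD-fed mice. The WD-fed value missed the threshold narrowly. Without replicate 1 of the WD-fed CD45hi libraries the adjusted p was 0.0381, and without replicate 4 of the WD-fed CD45lo libraries 0.0386.

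Entpd1 (ENSMUSG00000048120) was 774.0, 975.3, 916.8 and 912.4 cpm in CD45lo and 440.8, 428.4, 642.5 and 473.3 cpm in CD45hi libraries of CD-fed mice. On the WD it was 917.5, 816.8, 943.7 and 841.8 cpm in CD45lo and 353.9, 409.8 and 484.8 cpm in CD45hi libraries. No library overlapped between the cell types. For Entpd1 the log2 fold change was -0.85 ± 0.144 (SE, adjusted p = 0.15) in CD-fed and -1.08 ± 0.159 (adjusted p = 0.0174) in WD-fed mice. Replicate 3 of the CD-fed CD45hi libraries, the highest of its group, decided the first: without it the value was -1.0 (adjusted p = 0.02). The WD-fed call was lost without replicate 1 of the WD-fed CD45hi libraries (adjusted p = 0.0691) or replicate 3 of the WD-fed CD45lo libraries (0.0512).

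Adora3 (ENSMUSG00000000562) couples to an inhibitory G protein and is best known from mast cells, and the mast cell proteases Cpa3 and Cma1 were at 0.88 cpm or less in every group mean here. Adora3 was 114.8, 96.0, 94.4 and 100.9 cpm in CD45lo and 34.7, 39.3, 50.4 and 13.5 cpm in CD45hi libraries of CD-fed mice. On the WD it was 99.0, 72.5, 88.3 and 69.2 cpm in CD45lo and 10.3, 53.2 and 42.9 cpm in CD45hi libraries. The cell types did not overlap, yet the lowest 2 CD45hi values came from the 2 libraries that stood apart. In the WD-fed one of them border macrophage markers summed to 699.2 cpm against 1810 and 2536 cpm in the other WD-fed CD45hi libraries; in the CD-fed one they were at 1994 cpm, within the range of its group. The log2 fold change was -1.56 ± 0.415 (SE, adjusted p = 0.0936) in CD-fed and -1.21 ± 0.453 (adjusted p = 0.241) in WD-fed mice. Without both libraries it was -1.29 ± 0.207 (adjusted p = 0.015) and -0.78 ± 0.235 (adjusted p = 0.3), so both values were smaller and the CD-fed difference, with a smaller SE, was called. The second row listed as Adora3 (ENSMUSG00000074344) is named Tmigd3 in GENCODE M21, held 0 to 67 counts per library and overlapped between the cell types. The genes share 779 exonic bases on the same strand, and 5 of the 15 Adora3 counts were not whole.

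**Figure D2:**
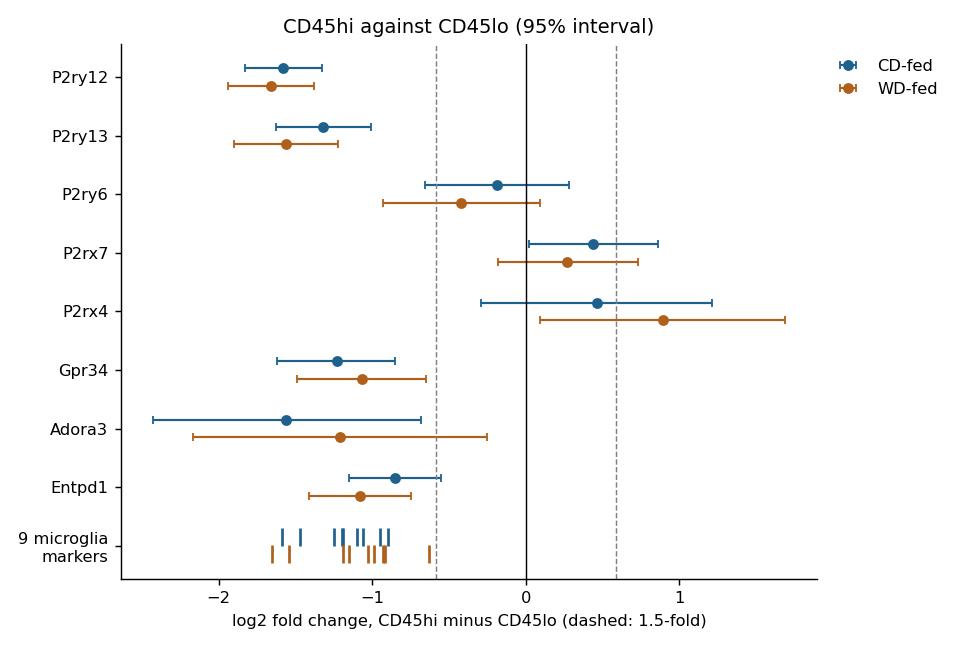
Log2 fold change of each gene between CD45hi and CD45lo cells with its 95% interval, in CD-fed (blue) and WD-fed (brown) mice; dashed lines mark 1.5-fold and ticks in the last row are the 9 microglia markers one by one. P2ry12 and P2ry13 lie at -1.58 to -1.32 in CD-fed and -1.66 to -1.56 in WD-fed mice, P2ry6 at -0.19 and -0.42, and P2rx7 and P2rx4 to the right of 0.

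With a test of any change in place of one beyond 1.5-fold (edgeR's glmQLFTest), P2ry12, P2ry13, Gpr34 and Entpd1 passed on both diets and Adora3 in CD-fed mice (adjusted p = 0.027, and 0.108 in WD-fed mice), beside 2.08% and 2.9% of tested genes called lower. P2ry6, P2rx7 and P2rx4 did not pass that test either, with adjusted p-values of 0.155 to 0.731. P2ry12 and P2ry13 kept direction and call in all 54 alternative settings run for each over both diets, with adjusted p-values of at most 0.00163 and 0.00379.

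Whether the members differed among themselves was tested by their level relative to P2ry12 in the same library, which does not depend on library size or scaling. The test was a two-sided exact permutation test of the mean difference in log2 ratio, exchanging cell types within each diet (2450 arrangements), with p-values adjusted over the 7 ratios. P2rx4 rose against P2ry12 by 2.16 log2 units in CD45hi cells and P2rx7 by 1.94, both with adjusted p = 0.000952. P2ry6 rose against it by 1.31 (adjusted p = 0.00143) and Entpd1 by 0.65 (adjusted p = 0.000952). For these 4 genes the ratio in each of the 4 CD-fed and 3 WD-fed CD45hi libraries was above every CD45lo library of its diet. The share of all tested genes with that pattern was not counted. P2ry12 itself differed by -1.58 in CD-fed and -1.66 in WD-fed mice, beside medians of 0.04 and 0.00 over all tested genes. A gene without change therefore also rises against P2ry12, and the rises of P2ry6 and Entpd1 were smaller than its fall. The p-values show only that the 4 genes did not fall as far as P2ry12. Entpd1 had the tightest ratio within CD45hi cells, and it was -2.10 ± 0.206 (SD, n = 4) in CD-fed CD45lo, -1.38 ± 0.174 (n = 4) in CD-fed CD45hi, -1.95 ± 0.192 (n = 4) in WD-fed CD45lo and -1.38 ± 0.0573 (n = 3) in WD-fed CD45hi cells.

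Gpr34 rose against P2ry12 by 0.46 log2 units (exact permutation test, adjusted p = 0.0309), with overlap in both diets, and this call was lost when single libraries were left out. The P2ry13 ratio differed by 0.18 (exact permutation test, adjusted p = 0.136) and the Adora3 ratio by 0.02 (adjusted p = 0.96). The Adora3 ratio was scattered in CD45hi cells, with SDs of 0.699 and 1.17 on the CD and the WD against 0.0833 and 0.184 in CD45lo cells. Within 1 diet the smallest p that this test allows is 0.0286, which P2rx4, P2rx7 and Entpd1 reached on both diets.

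**Figure D3:**
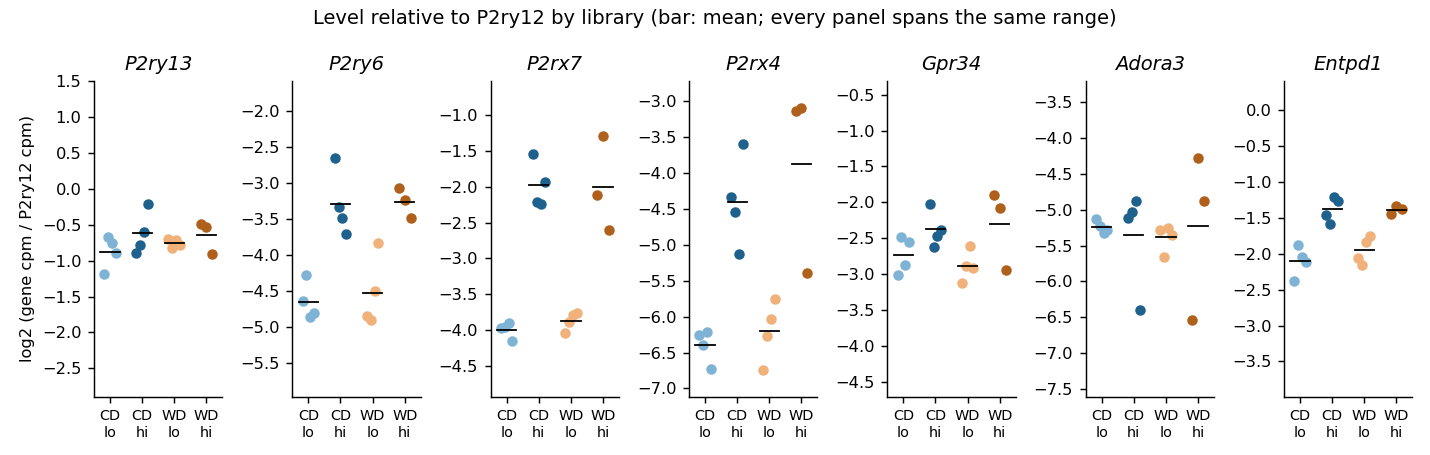
Log2 ratio of each gene's level to that of P2ry12 in the same library; points are libraries, bars group means, and every panel spans the same range so that shifts can be compared. Against P2ry12, which itself fell, P2rx7 and P2rx4 rose by 1.94 and 2.16 log2 units in CD45hi cells and P2ry6 by 1.31. P2ry13 moved by 0.18.

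Levels were compared between genes as TPM, which corrects for transcript length. In CD-fed CD45lo cells the order was P2ry12 (3707 ± 283.4 TPM, SD, n = 4), P2ry13 (1684 ± 172.1), Gpr34 (628.0 ± 102.9), Entpd1 (533.9 ± 70.6), P2ry6 (163.9 ± 22.4), P2rx7 (134.7 ± 5.59), Adora3 (105.1 ± 10.7) and P2rx4 (63.4 ± 9.99). Gpr34 and Entpd1 overlapped between libraries, as did P2ry6 and P2rx7, and the other neighbours in the order did not. WD-fed CD45lo cells kept this order except that Entpd1 (549.7 ± 55.6 TPM) and Gpr34 (503.6 ± 93.9 TPM), which overlapped, changed places. In CD45hi cells P2ry12 came first (900.2 ± 136.6 TPM in CD-fed, n = 4, and 717.1 ± 123.6 in WD-fed mice, n = 3) and P2ry13 second (488.3 ± 85.9 and 380.1 ± 0.352). Further down, neighbours overlapped in CD45hi cells of both diets, and Adora3 came last at 31.8 ± 20.4 and 26.4 ± 14.3 TPM.

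The summed level and the make-up of these transcripts both differed between the cell types. The 8 genes summed to 6801 to 7519 TPM in CD-fed and 5113 to 7388 TPM in WD-fed CD45lo libraries, and to 1918 to 2606 and 1641 to 1814 TPM in CD45hi libraries. Since TPM is relative to all transcripts, the higher mitochondrial share in CD45hi libraries lowers these sums, but not the shares within them. P2ry12 made up 52.8% ± 3.37 (SD, n = 4) of the pool in CD-fed CD45lo and 40.7% ± 3.09 (n = 4) in CD-fed CD45hi cells, and 51.4% ± 1.73 (n = 4) and 41.4% ± 5.19 (n = 3) in WD-fed mice. The share of P2ry13 stayed between 22.0% and 25.3% in the means of all 4 groups. P2rx7 went from 1.92% ± 0.0946 (n = 4) in CD-fed CD45lo to 6.43% ± 2.52 (n = 4) in CD-fed CD45hi cells, and from 2.09% ± 0.234 (n = 4) to 6.58% ± 1.86 (n = 3) in WD-fed mice. P2rx4 had 0.909% ± 0.174 and 3.6% ± 2.1 in CD-fed mice, without overlap, and 1.03% ± 0.292 and 4.4% ± 2.88 in WD-fed mice, where the lowest CD45hi library (1.17%) lay inside the CD45lo range.

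**Figure D4:**
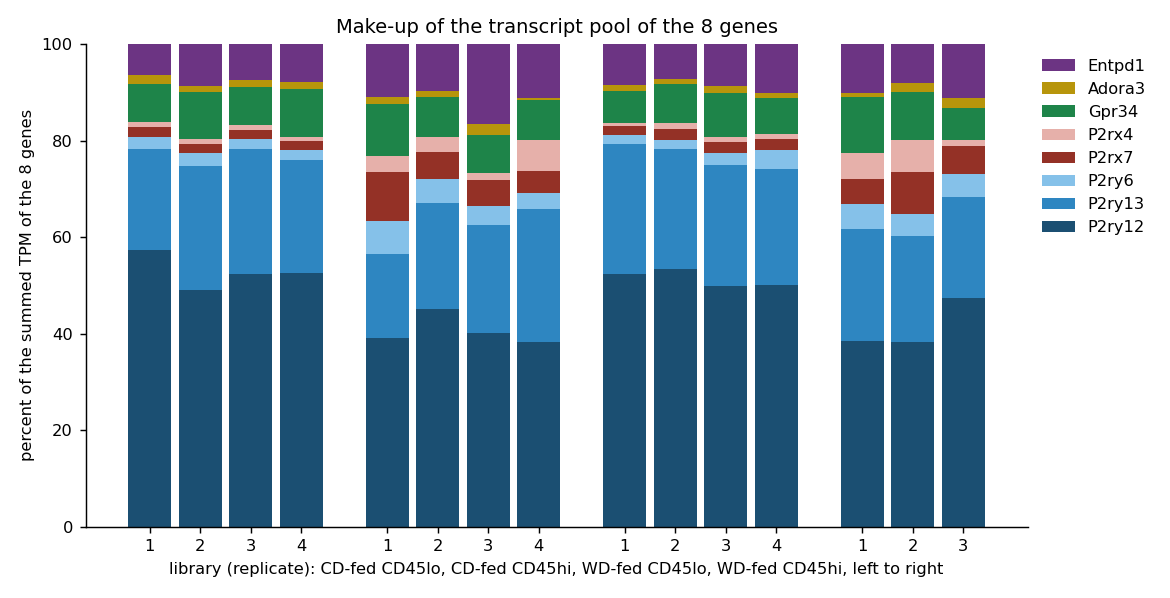
Share of each gene in the summed TPM of the 8 genes, one bar for each library, grouped from left to right as CD-fed CD45lo, CD-fed CD45hi, WD-fed CD45lo and WD-fed CD45hi. P2ry12 takes 49.1 to 57.3% of CD45lo bars and 38.2 to 47.4% of CD45hi bars, and the red segments of P2rx7 are wider in every CD45hi bar than in any CD45lo bar; for P2rx4 (1.17 to 6.7% in WD-fed CD45hi against 0.598 to 1.2% in WD-fed CD45lo bars) they overlap.

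The second comparison asked whether the diet changed the 8 genes. No member passed edgeR's glmQLFTest in CD45hi cells, where 0.254% of tested genes were called, or in CD45lo cells, where 0.0% were called (0 genes, with 123 at an unadjusted p under 0.05 and 4 called by DESeq2). The count of members at an unadjusted p under 0.05 was also 0 in each cell type, while 2628 of all tested genes were under it in CD45hi cells. DESeq2 and limma-voom called 0 members. In CD45hi cells the log2 fold change of WD-fed over CD-fed mice was -0.24 for P2ry12 (95% interval -0.50 to 0.03), -0.29 for P2ry13 (-0.61 to 0.04) and -0.25 for Entpd1 (-0.58 to 0.07). P2rx4 gave 0.47 (-0.33 to 1.27) and Adora3 0.04 (-0.88 to 0.97), the widest intervals. In CD45lo cells P2ry13 (-0.05, interval -0.35 to 0.25) and Entpd1 (-0.02, -0.32 to 0.28) lay near 0 with narrow intervals. Gpr34 had the largest difference there, -0.32 (-0.70 to 0.05). The interval for Gpr34 reaches down to 0.615 of the CD-fed level, while those of P2ry12, P2ry13, P2ry6, P2rx7 and Entpd1 in CD45lo cells lie within 1.5-fold.

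The interaction, which asks whether the difference between the cell types itself depended on the diet, was called for 0 of the 8 genes, beside 0.00668% of tested genes. Its log2 value ran from -0.24 ± 0.211 (SE) for P2ry13 to 0.43 ± 0.519 for P2rx4, with edgeR adjusted p-values of 0.761 to 0.939. No member had an unadjusted p under 0.05, beside 1515 of all 14967 tested genes, and DESeq2 and limma-voom called 0 members. The calls of Gpr34 in CD-fed mice and of Entpd1 in WD-fed mice alone are thus not shown to differ between the diets (interaction 0.17 ± 0.263 and -0.23 ± 0.21).

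**Figure D5:**
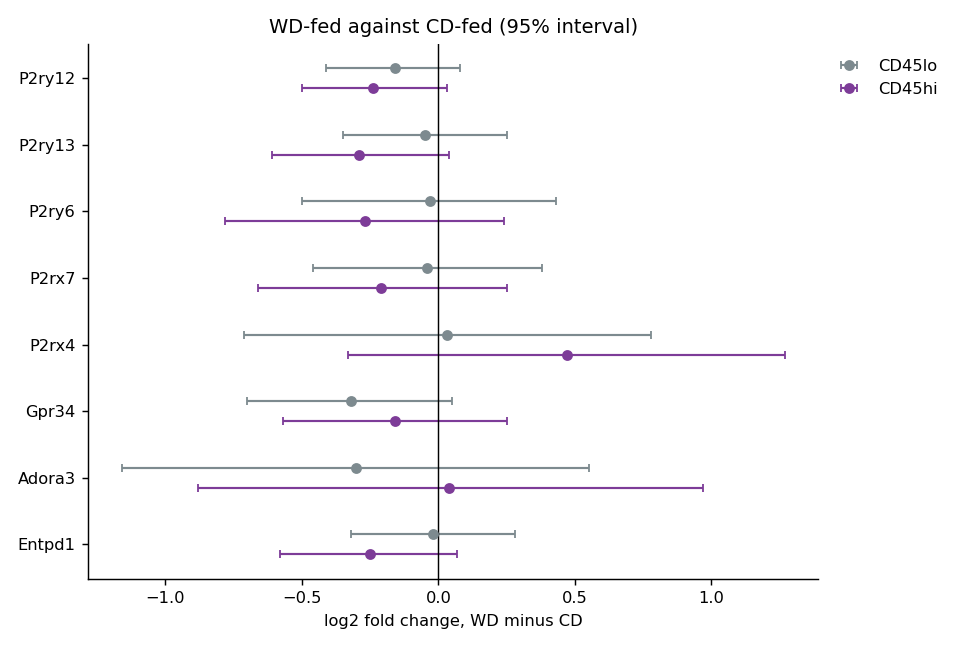
Log2 fold change of each gene between WD-fed and CD-fed mice with its 95% interval, in CD45lo (grey) and CD45hi (purple) cells. Every interval includes 0; the estimates run from -0.32 to 0.03 in CD45lo and from -0.29 to 0.47 in CD45hi cells.

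Where the genes lie was read from GENCODE M21 on GRCm38 (mm10), the build of the files. P2ry13 (chr3:59207892-59210882) and P2ry12 (chr3:59216272-59262871) are neighbours on the minus strand, near Gpr171 and P2ry14, and all 4 genes lie within the span of Med12l on the plus strand. P2ry12 shares 9 exonic bases with Med12l and P2ry13 none. Gpr34 (chrX:13632089-13640858, plus strand) lies in an intron of Cask on the opposite strand. P2rx7 (chr5:122643911-122691432) and P2rx4 (chr5:122707544-122729738) are neighbours on the plus strand. P2ry6 is at chr7:100937630-100974649 (minus strand), Adora3 at chr3:105870858-105908926 and Entpd1 at chr19:40612366-40741602 (plus strand).

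Among the genes near P2ry12, Med12l, a Mediator subunit, was at 83.3 ± 9.84 cpm (SD, n = 4) in CD-fed CD45lo and 59.2 ± 8.11 cpm (n = 4) in CD-fed CD45hi cells (log2 fold change -0.49, adjusted p = 0.895) and at 90.3 ± 11.5 (n = 4) and 43.9 ± 15.2 cpm (n = 3) in WD-fed mice (-1.04, adjusted p = 0.138). Igsf10, on the minus strand beyond P2ry12, shares 1948 exonic bases with Med12l and was at 4.82 ± 1.58 and 0.221 ± 0.181 cpm in CD-fed CD45lo and CD45hi cells (n = 4 each, log2 fold change -4.43, adjusted p = 0.0876), and at 8.31 ± 4.52 (n = 4) and 4.58 ± 7.71 cpm (n = 3) in WD-fed mice (-0.85, adjusted p = 0.874). Gpr171, a P2Y-like receptor, was called in the direction opposite to P2ry12 in CD-fed mice (adjusted p = 0.00502). It lay at 0.0 to 0.0519 cpm in CD-fed CD45lo and 3.08 to 30.4 cpm in CD-fed CD45hi libraries. The CD45hi group mean was at least 84.3-fold higher against a floor of 3 counts in the CD45lo libraries. In WD-fed mice it reached 0.23 to 10.7 cpm in CD45hi cells (adjusted p = 0.076). P2ry14, a receptor for UDP-glucose, stood at 4.00 cpm or less in every group mean and was not called. The 8 lymphocyte and dendritic cell markers were also higher in CD45hi libraries, with sums of 10.8 to 17.4 cpm in CD45lo and 26.9 to 94.0 cpm in CD45hi libraries. In CD-fed CD45hi cells most of the sum was Flt3 (24.5 ± 9.01 cpm, SD, n = 4), Klrb1c (8.68 ± 7.83) and Xcr1 (7.25 ± 4.24), while the T cell genes Cd3e and Cd3g were at 1.03 cpm or less in every group mean. The part of these cells in the Gpr171 difference was not tested.

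The sequence before 1 listed start of P2ry13, Entpd1 and the neighbours P2rx7 and P2rx4 is shown, each 5′ to 3′ on the strand of its gene, from RefSeq on GRCm38.p6. Capitals mark matches on either strand to 3 short motifs: GAGGAA (the core of a PU.1 site), TGANTCA (AP-1) and TGTGGT (RUNX). Of 32851 promoters in the table, 23.3% hold GAGGAA, 6.75% TGANTCA and 14% TGTGGT in the 250 bases before the start.
P2ry13 (chr3:59210883-59211132, minus strand): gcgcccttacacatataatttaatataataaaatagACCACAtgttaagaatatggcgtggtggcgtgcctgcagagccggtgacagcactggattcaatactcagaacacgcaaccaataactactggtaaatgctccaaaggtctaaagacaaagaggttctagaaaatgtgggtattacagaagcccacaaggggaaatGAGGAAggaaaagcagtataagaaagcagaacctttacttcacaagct
Entpd1, downstream of its 2 listed starts (chr19:40659520-40659769, plus strand): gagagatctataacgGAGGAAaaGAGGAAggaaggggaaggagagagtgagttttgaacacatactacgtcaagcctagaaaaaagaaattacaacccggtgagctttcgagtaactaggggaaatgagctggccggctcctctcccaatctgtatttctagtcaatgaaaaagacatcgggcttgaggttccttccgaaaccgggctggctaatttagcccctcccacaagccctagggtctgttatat
P2rx7, upstream of its 2 listed starts (chr5:122643677-122643910, plus strand): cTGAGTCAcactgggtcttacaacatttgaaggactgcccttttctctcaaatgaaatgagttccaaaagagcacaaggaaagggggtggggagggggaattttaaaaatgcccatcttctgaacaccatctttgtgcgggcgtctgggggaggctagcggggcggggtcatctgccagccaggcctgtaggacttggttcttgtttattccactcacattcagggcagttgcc
P2rx4 (chr5:122707294-122707543, plus strand): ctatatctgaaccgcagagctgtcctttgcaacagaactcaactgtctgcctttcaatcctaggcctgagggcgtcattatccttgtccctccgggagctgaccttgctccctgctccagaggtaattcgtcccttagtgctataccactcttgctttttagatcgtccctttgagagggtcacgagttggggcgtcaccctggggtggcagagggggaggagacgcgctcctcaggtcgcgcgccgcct
The printed windows held 1 GAGGAA and 1 TGTGGT (P2ry13), 2 GAGGAA (Entpd1), 1 TGANTCA (P2rx7) and 0 matches (P2rx4). The windows before the other listed start of Entpd1 and of P2rx7, not printed, held 0 matches to each motif, and that of Adora3 held 1 GAGGAA and 1 TGANTCA. The 250 bases before P2ry12 lie in an annotated exon of Med12l, are not printed, and held 0 matches to each motif. A match is a run of letters and was not tested as a site.

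For each member the genes with the most similar profile were found as those with the smallest root mean square difference in mean-centred log2 cpm over the 15 libraries, among 8253 genes with a mean of at least 10 cpm. The libraries are shared and come from both cell types, so this likeness is a description, and the part of cell type in it was not tested. P2ry12 and P2ry13 were in each other's nearest 3 (0.216 log2 units apart), with the fructose transporter Slc2a5 (0.202 and 0.198). Nearest to P2ry13 was Olfml3 (0.179), and the efferocytosis receptor Mertk (0.267) was the other gene nearest to P2ry12. Entpd1 had Cx3cr1, the fractalkine receptor, at 0.151, Siglech at 0.169 and 4632428N05Rik at 0.173. Gpr34 had Pmepa1 (0.222), the RNA sensor Tlr3 (0.236) and Ptgs1 (0.244), which encodes cyclooxygenase-1.

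P2ry6 was closest to Ttc28 (0.202), Zfp710 (0.209) and the interleukin-6 receptor gene Il6ra (0.218). P2rx7 was closest to Tet3 (0.195), Atp6v1b2 (0.197) and Arhgdia (0.201), and P2rx4 to the actin regulator Brk1 (0.21), Gtpbp2 (0.265) and Ywhag (0.272). Adora3 had 1 near gene, Rtn4rl1 (0.211), and then Lrba (0.353) and BC027231 (0.416). Among the members, P2rx4 and Adora3 were the least alike, at 1.43 log2 units.

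The rest of the pathway was mostly scarce in these cells. The 48 other genes came from 7 lists (receptors, ectonucleotidases and their relatives, nucleoside handling and ATP release). Of these genes, 35 could be tested and 31 stayed under 10 cpm in every group mean. In CD-fed mice 3 were called higher and 0 lower in CD45hi cells, with a median log2 fold change of -0.01; in WD-fed mice 2 were higher and 2 lower, with a median of 0.19. Over all tested genes 3.39% and 4.01% were called higher. The diets gave 0 calls among the 35 in either cell type by edgeR.

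Among receptors, the remaining 4 P2Y genes did not exceed 4.38 cpm in any group mean and none was called. P2rx1, the ATP channel of platelets and smooth muscle, was 3.78 to 5.44 cpm in WD-fed CD45lo and 0 in all 3 WD-fed CD45hi libraries, at least 19.2-fold lower (adjusted p = 0.00957), but 0.0 to 7.39 cpm in CD-fed CD45hi libraries, where it was not called. The other adenosine receptors Adora1, Adora2a and Adora2b were at 4.70 cpm or less and not called. P2ry10, a lysophosphatidylserine receptor, was called higher in CD45hi cells on both diets (5.64 ± 3.98 against 0.14 ± 0.0979 cpm in CD-fed mice, SD, n = 4, adjusted p = 0.0144, and at least 22.7-fold in WD-fed mice, adjusted p = 0.0028). The P2Y-like receptors Gpr183 (95.2 to 145.5 cpm in group means), P2ry10b (6.17 to 20.5 cpm) and Gpr18 (1.71 to 11.2 cpm) were not called.

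Among enzymes, 0 of the 8 genes tested from the list of ectonucleotidases and their relatives, Entpd1 aside, were called. Entpd4, Entpd5, Entpd6, Entpd7, Enpp1 and Enpp4 had group means of 3.88 to 34.2 cpm, and Enpp2, which encodes autotaxin, 49.5 to 142.9 cpm. Nt5e (CD73), the enzyme that makes adenosine from the AMP that Entpd1 leaves, was at 0.557 cpm or less in every group mean and did not reach the level for testing. Dpp4 (CD26), listed here under nucleoside handling, rose in CD45hi cells on both diets. CD-fed means went from 0.359 ± 0.338 to 11.1 ± 8.22 cpm (n = 4 each, adjusted p = 0.0316). WD-fed means went from 0.306 ± 0.541 (n = 4) to 24.4 ± 10.9 cpm (n = 3, adjusted p = 0.00907). Whether Dpp4 bears on adenosine in these cells was not tested. Slc29a2, a nucleoside transporter, was 0 in the WD-fed CD45hi libraries against 0.742 to 4.28 cpm in WD-fed CD45lo libraries, at least 10.4-fold lower as group means (adjusted p = 0.0229). Slc29a3, the lysosomal nucleoside transporter, was abundant (693.8 to 963.4 cpm in group means) and not called. Pnp (110.3 to 176.6 cpm), Slc29a1 (25.0 to 29.9 cpm), the volume-regulated channel subunit Lrrc8a (55.4 to 82.6 cpm) and Calhm2 (50.7 to 99.7 cpm) were not called either.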

How the data were processed

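RNA-seq libraries were made by the authors from poly(A) RNA of FACS-sorted cells and read as 75 bp paired ends. Reads were trimmed and aligned with Bowtie2 through RSEM 1.2.12 (version also in the submitters' processing notes) to mm10. The authors deposited expected counts, which need not be whole, and the TPM and FPKM derived from them by RSEM, per gene and library. The text does not say whether counting used strand, or which library ran on which of 2 sequencers.

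Counts were rounded, and genes with 1 cpm or more in 2 or more libraries kept (14967 of 38924). All 15 libraries, grouped by their titles, entered a single edgeR 4.0.16 fit (R 4.3.3, TMM, earlier quasi-likelihood form), with glmTreat at 1.5-fold between cell types and glmQLFTest between diets and for the interaction. Intervals are 95%. Total counts were 11951412 to 17912272, so 3 counts equal 0.156 to 0.282 cpm. Folds given as at least a value divide a group mean by the mean floor, so single libraries can lie lower. Floors cover counting error only. Fits were tested on simulated data.

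Alternatives were DESeq2 1.42.0, limma-voom 3.58.1, other filters, normalization, groups, blocks, and each library left out. Same-numbered libraries correlated at -0.0217 to 0.0695 in their deviations from group means, and the numbers were not used as pairs in the main fit. In CD-fed mice CD45hi replicates 2, 3 and 4 correlated best with the CD45lo library of their number, so pairing is not excluded. The members and lists were chosen with earlier results of these data known. Named besides members were list genes called or at 10 cpm, the 3 nearest profiles and the genes beside P2ry12. Of the list symbols 3 were found under older names.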

Additional observations from a re-analysis of the deposited data

How the results depend on the processing

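P2ry12 and P2ry13 kept direction and call between cell types under every alternative run. The diets and the interaction gave 0 members called by edgeR, DESeq2 and limma-voom under each alternative run. At an unadjusted p under 0.05, 2 members (P2ry12 and Gpr34, both lower in WD-fed CD45lo cells) passed in limma-voom, 2 in CD45lo cells with the compared groups fitted alone and 1 in CD45hi cells with the title block. Of all 14967 tested genes 93, 641 and 1837 passed in these fits, in that order. With single libraries left out, up to 3 passed in CD45hi cells (3 without WD-fed CD45hi replicate 3, and 1 each without replicate 2 and without CD-fed CD45hi replicate 1 or 4), 1 in CD45lo cells (without WD-fed CD45lo replicate 3) and 1 in the interaction (without WD-fed CD45hi replicate 2 or 3). Over all tested genes 2999 of 14870 passed in CD45hi cells without WD-fed CD45hi replicate 3, and 3047, 2766 and 2754 in the other fits as listed. In CD45lo cells 111 passed, and in the interaction 2040 and 1979.

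With glmQLFTest and glmTreat exchanged, 5 members were called between cell types in CD-fed mice, and over all genes 1202 (CD-fed), 1365 (WD-fed) and, between diets in CD45hi cells, 1. That last count, 38 as reported, was 1030 with DESeq2, 252 with the edgeR 4 form, 71 with at least 5 cpm in 3 libraries, 0 with the compared groups alone (1032 at an unadjusted p under 0.05), and 290 without both CD45hi libraries that stood apart. Leaving out single libraries gave 1 to 286 calls there and 513 to 920 between cell types in WD-fed mice (513 without WD-fed CD45lo replicate 3, 515 without replicate 1). The cause was not tested. The numbers in titles and file names did not settle which libraries pair. With a replicate block by sample titles 398 genes were called between cell types in WD-fed mice and 2 between diets in CD45hi cells, and with one by file names 353 in WD-fed mice. Every library correlated best with its own number in neither numbering. Entpd1 in WD-fed mice was not called with the file-name block (-1.07, adjusted p = 0.063) or DESeq2 (-1.03, adjusted p = 0.114). Gpr34 in WD-fed mice was called with the 5 cpm filter (adjusted p = 0.0481) and the edgeR 4 form (0.0461), which also called Adora3 in CD-fed mice (0.0244). The median of all genes between cell types was -0.222 and -0.265 with limma-voom, and -0.215 and -0.256 with the title block.

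Over single libraries left out, the ratio to P2ry12 ranged from 0.36 to 0.62 for Gpr34, which lost its call in 8 of 15 cases, from 0.11 to 0.25 for P2ry13, called without WD-fed CD45hi replicate 3 (exact permutation test, adjusted p = 0.0222), and from -0.22 to 0.35 for Adora3, which was not called. Uncalled values near 0 changed sign. Between diets in CD45hi cells the range was -0.37 to 0.48 for Adora3 and -0.28 to 0.02 for Gpr34. In CD45lo cells it was -0.09 to 0.02 for Entpd1, -0.05 to 0.14 for P2rx4, -0.08 to 0.01 for P2rx7, -0.13 to 0.04 for P2ry13 and -0.20 to 0.06 for P2ry6. For the interaction it was -0.07 to 0.78 for Adora3, -0.56 to 0.02 for P2rx7 and -0.20 to 0.01 for P2ry12, and for P2rx7 between cell types in WD-fed mice -0.12 to 0.45. The second Adora3 row ranged from -2.64 to 2.01 between diets in CD45hi cells and from -3.24 to 1.41 in the interaction. Adora3 between diets in CD45hi cells was -0.10 with the title block. Without both libraries that stood apart the Gpr34 interaction was -0.02, and the second Adora3 row gave -1.86 between diets in CD45hi cells and -2.46 in the interaction. That interaction was -0.75 with limma-voom, -0.20 with the title block and -0.27 with the file-name block. The order of the members by FPKM matched that by TPM in each group.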
